A study of Homo sapiens with 8 samples.

Results

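The protein-folding machinery of the endoplasmic reticulum (ER) and its stress response are described here through 10 genes: HSPA5, HYOU1, HSP90B1, SDF2L1, DNAJB9, CALR, PDIA4, XBP1, HERPUD1 and SEL1L. They were chosen by name, as ER chaperones and known members of the unfolded protein response, and not by a threshold on the measured values. The 10 were picked with earlier results of these data known, so their counts beside all genes are descriptions. They are 10 of the 31461 genes listed for either cell line, and all 10 were among the 14635 genes tested, which had at least 1 FPKM in at least 2 libraries. RNA-seq was made from 2 human lung cancer cell lines, A549 and H1299, both labelled wild type. The libraries form 4 groups of 2: A549 given miR-29a-3p, A549 control, H1299 given miR-29a-3p and H1299 control. The microRNA's dose, the time after treatment and the nature of the control were not stated in the labels, and each is an established line in culture. Levels are FPKM, fragments per kilobase of transcript scaled to each library's size. Being per length, they can be set beside each other between genes of 1 library, while between the labels they also carry a difference in scale, given with the comparison of the controls.

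The ER is where secreted and membrane proteins fold, with the help of chaperones, lectins and enzymes that form disulfide bonds. When unfolded proteins accumulate, the membrane sensors IRE1 (gene ERN1), PERK (gene EIF2AK3) and ATF6 start the unfolded protein response: ATF6 is cleaved to a transcription factor, IRE1 splices XBP1 mRNA so that it encodes one, and PERK slows translation while favouring that of ATF4. Their targets include chaperones and the machinery that retrieves misfolded proteins for degradation. Secretory and cancer cells are known to draw heavily on this system.

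The treatment was the microRNA itself, so its sequence is shown first, with the bases of the seed (positions 2 to 8 from the 5′ end) in capitals; RefSeq places it on GRCh38.p14 at chr7:130876748-130876769, minus strand.
hsa-miR-29a-3p: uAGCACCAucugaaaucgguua
A 3′ UTR that pairs with all of the seed holds TGGTGCT, and the strongest class of match, the 8mer, holds TGGTGCTA. Of the 10 genes, 3 had any match in the longest annotated protein-coding 3′ UTR (GENCODE 29), and the other 7 had none. These matches are printed because they are where the microRNA could pair with an mRNA of the 10, with the match in capitals. Each position is that of the first base of GGTGCT, which every match holds, so the 8mer starts 1 base before the position given.
HSPA5, an 8mer at base 1093 of 1739 after the stop codon: ggacaggcTGGTGCTAacata
PDIA4, a 6mer at base 481 of 732: cctgccaggGGTGCTgtttca
XBP1, a 6mer at base 934 of 991: cttctgaaaGGTGCTttctcc
An 8mer or a match to all 7 seed bases was present in 1908 (16.4%) of the 11632 tested genes with such a 3′ UTR, and any match, 6mers included, in 3974 (34.2%). The 10 genes held 1 and 3 such UTRs. A match is a stretch of letters, not a measured binding site.

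The promoters of the 10 genes are shown because the ER stress response element, ERSE, is the sequence by which several of these genes are known to be induced. The RefSeq table (GRCh38.p14) covers 250 bases before and 50 after each gene's start, and all 10 genes were in it. Searched on both strands, ERSE (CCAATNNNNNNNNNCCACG) was present in 27 of 35116 promoters (0.0769%), and in 4 of the 10 (HSPA5, HSP90B1, XBP1 and CALR). ERSE-II (ATTGGNCCACG) was present in 19 promoters (0.0541%), and in 3 of the 10 (HERPUD1, SDF2L1 and HYOU1). The unfolded protein response element, UPRE (TGACGTGG), was in 256 promoters (0.729%), with 1 of the 10 among them, HYOU1, where it overlaps an ERSE-II. Each stretch below is on the gene's own strand, with ERSE, ERSE-II or UPRE in capitals.
HSPA5, chr9:125241376-125241424, minus strand: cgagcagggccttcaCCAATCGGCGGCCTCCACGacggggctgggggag
XBP1, chr22:28800588-28800636, minus strand: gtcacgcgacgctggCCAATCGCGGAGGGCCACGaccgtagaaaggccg
CALR, chr19:12938369-12938417, plus strand: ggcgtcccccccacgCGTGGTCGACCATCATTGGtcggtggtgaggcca
HSP90B1, chr12:103930201-103930354, plus strand: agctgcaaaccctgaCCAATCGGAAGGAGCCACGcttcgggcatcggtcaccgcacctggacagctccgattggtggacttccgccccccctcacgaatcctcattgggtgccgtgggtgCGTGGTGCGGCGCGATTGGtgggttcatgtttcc
HERPUD1, chr16:56932010-56932050, plus strand: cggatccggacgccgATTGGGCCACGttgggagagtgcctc
SDF2L1, chr22:21642099-21642139, plus strand: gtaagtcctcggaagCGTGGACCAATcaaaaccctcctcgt
HYOU1, chr11:119057259-119057408, minus strand: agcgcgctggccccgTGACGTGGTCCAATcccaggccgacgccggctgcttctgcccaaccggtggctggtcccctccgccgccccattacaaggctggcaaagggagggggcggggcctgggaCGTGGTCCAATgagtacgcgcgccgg
PDIA4, DNAJB9 and SEL1L held none of the 3 elements in this window, so 7 of the 10 promoters held at least 1, against 301 (0.857%) of all promoters. For each of the 10 genes 1 promoter was taken, and the 10 are themselves among all promoters. They were chosen as known genes of this response, so the excess follows from the choice and is no test. The plain CCAAT box, which is part of ERSE and ERSE-II, was in all 10 promoters and in 12155 (34.6%) of all. The amino acid response element (TGATGNAA), known as an ATF4 site, was in 1270 promoters (3.62%) and in 1 of the 10, HERPUD1. The absence of these letters from a window says nothing about which factors act on the gene.

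**Figure D1:**
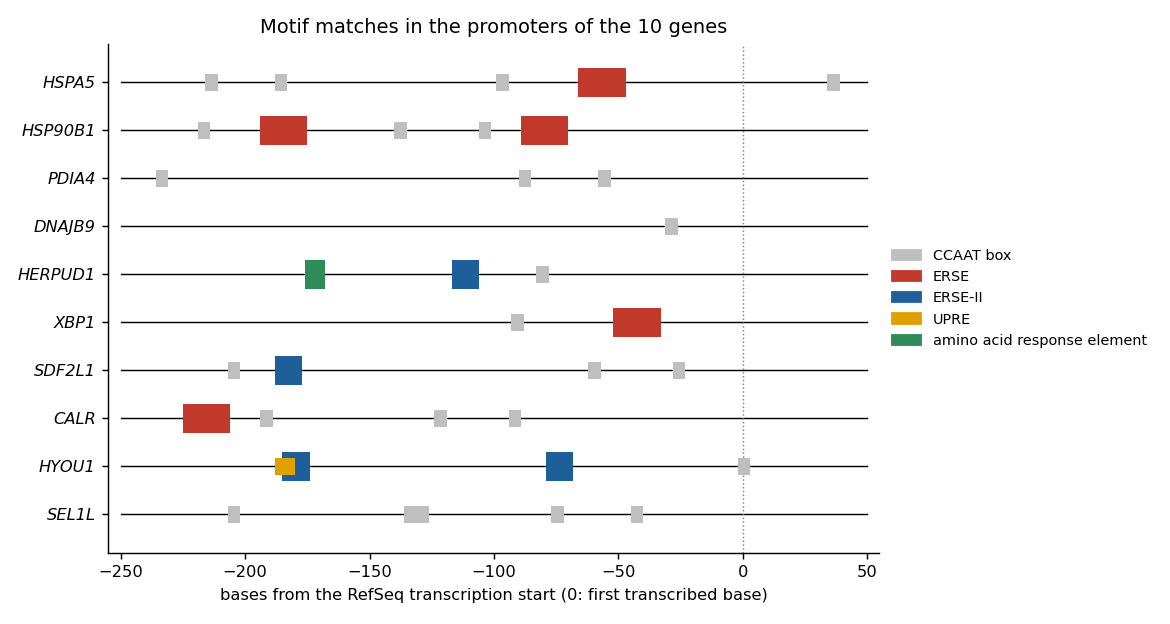
Positions of ERSE, ERSE-II, UPRE, amino acid response element and CCAAT box matches in the promoters of the 10 genes, in bases from the first transcribed base. HSP90B1 holds ERSE at 2 places and HYOU1 holds ERSE-II at 2 places, while PDIA4, DNAJB9 and SEL1L hold only CCAAT boxes.

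The libraries held an estimated 12221310 to 15614821 fragments each, as read from the spacing of low values, and 12021 to 12837 genes at 1 FPKM or more. The markers of the cell lines lay opposite to the labels. CDKN2A, a gene known to be deleted in A549, averaged 28.1 ± 0.40 FPKM in A549-labelled miR-29a-3p libraries and 24.3 ± 0.72 in A549-labelled controls, against 0.0735 ± 0.0106 and 0.0818 ± 0.0432 in H1299-labelled miR-29a-3p and control libraries (SD, n = 2 each). Of 8 genes known to be abundant in A549, such as the aldehyde dehydrogenase ALDH1A1, 7 were higher in the H1299-labelled controls than in the A549-labelled controls. Among these 7, UGT1A6 reached only 0.265 FPKM in any library and so says little. GPX2, the gene that was not higher, averaged 1.58 FPKM in H1299-labelled controls, against 1.77 in A549-labelled controls. The groups are therefore called by their labels throughout, and a statement about a line is a statement about the libraries so labelled. Of 15 markers of fibroblasts, leukocytes and endothelial cells, 14 stayed under 1 FPKM in all 8 libraries; the exception, LUM, reached 1.67 FPKM. Summed fibroblast markers were 2.39 to 2.54 FPKM in H1299-labelled miR-29a-3p libraries, against 1.04 to 1.11 in their controls. In A549-labelled libraries the sums were 0.158 to 0.245 with miR-29a-3p, against 0.185 to 0.234 in the controls. Summed leukocyte markers were 0.968 and 0.996 FPKM in H1299-labelled miR-29a-3p libraries, against 0.498 and 0.552 in their controls. They were 0.255 and 0.397 FPKM in A549-labelled miR-29a-3p libraries, against 0.192 and 0.414 in their controls. Summed endothelial markers lay between 0.209 and 0.413 FPKM in all 8 libraries. The part of these markers in the results was not tested.

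In the libraries labelled H1299, all 10 genes were lower with miR-29a-3p than in the controls, by 0.39 to 1.94 on the log2(FPKM + 1) scale. Over all 14635 genes, 24.8% passed the test as lower in this comparison and 25.1% as higher. A call here means an adjusted p under 0.05 in limma's moderated test, with Benjamini-Hochberg adjustment over all genes tested. The median of the 10 was -0.82, beside 0.001 for all genes. In bulk RNA, fewer cells that express a gene and less RNA per cell cannot be told apart.

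Among the 10, 5 are chaperones or their partners. HSPA5 (BiP), the Hsp70 chaperone of the ER lumen that also holds the sensors inactive, lies at chr9:125234853-125241330 on the minus strand (GENCODE 29 on GRCh38, as for all gene positions here). It was at 276 and 277 FPKM in H1299-labelled miR-29a-3p libraries, against 726 and 737 FPKM in their controls. The treated libraries were thus nearly the same as each other and far below both controls. The log2 fold change was -1.40 ± 0.034 (SE; adjusted p = 8.2e-06), and HSPA5 ranked 10 of 14635 genes by p-value.

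HYOU1, a large Hsp70-related chaperone that acts as a nucleotide exchange factor for HSPA5 (chr11:119044189-119057202, minus strand), had the largest fall of the 10 in this comparison. Its levels were 9.59 and 9.61 FPKM with miR-29a-3p, against 39.7 and 39.8 FPKM in the controls. The log2 fold change was -1.94 ± 0.084 (adjusted p = 1.93e-05), and the treated mean was 0.242 of the control mean. The next lowest of these ratios was that of HSPA5, 0.378.

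HSP90B1 (GRP94), the Hsp90 chaperone of the ER, lies at chr12:103930107-103953645. It was at 119.8 and 120.4 FPKM with miR-29a-3p, against 248 and 245 FPKM in the controls, a log2 fold change of -1.03 ± 0.041 (adjusted p = 1.59e-05). Its processed copy HSP90B2P and C12orf73, which overlaps it on the other strand, were listed at no more than 1.18 and 1.24 FPKM. SDF2L1, an ER-resident partner of the DnaJ co-chaperones (chr22:21642261-21644298), was at 14.2 and 13.7 FPKM with miR-29a-3p, against 26.8 and 24.6 FPKM in the controls. Its log2 fold change was -0.84 ± 0.052 (adjusted p = 6.26e-05). The treated mean was 0.487 of the control mean for HSP90B1 and 0.542 for SDF2L1, with no overlap in either gene.

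DNAJB9 (ERdj4), a DnaJ co-chaperone of HSPA5 that keeps IRE1 inactive (chr7:108569568-108574850), was at 16.05 and 16.04 FPKM with miR-29a-3p, against 23.7 and 26.6 FPKM in the controls. The log2 fold change was -0.62 ± 0.063 (adjusted p = 0.000379). Its control libraries differed from each other more than its treated ones, and all 4 values kept the groups apart. Its first bases lie opposite PNPLA8 and THAP5, which reached 3.25 and 3.37 FPKM, and whether reads were counted by strand is not stated.

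The lectin and the disulfide isomerase fell by less than HSPA5, HYOU1 and HSP90B1. CALR, the calcium-binding lectin that retains glycoproteins until they fold (chr19:12938578-12944489), was at 170.0 and 156 FPKM with miR-29a-3p, against 233 and 237 FPKM in the controls. Its log2 fold change was -0.53 ± 0.071 (adjusted p = 0.00123). PDIA4 (ERp72), a protein disulfide isomerase (chr7:149003062-149028641, minus strand), was at 156 and 160.2 FPKM with miR-29a-3p, against 241 and 242 FPKM in the controls. Its log2 fold change was -0.61 ± 0.037 (adjusted p = 5.8e-05). Neither gene's groups overlapped.

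XBP1, the transcription factor that IRE1 activates by splicing (chr22:28794555-28800597, minus strand), was at 8.37 and 5.54 FPKM with miR-29a-3p, against 13.9 and 17.6 FPKM in the controls. The log2 fold change was -1.09 ± 0.202 (adjusted p = 0.00477). Its replicates were the least alike of the 10 in both H1299-labelled groups, yet the higher treated library lay below the lower control. The table holds 1 value per gene, so spliced and unspliced XBP1 are not separated. A processed copy, XBP1P1, was listed at no more than 0.511 FPKM.

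The removal of misfolded proteins was represented by HERPUD1 and SEL1L. HERPUD1, which helps to assemble the degradation complex at the ER membrane (chr16:56932048-56944863), was at 3.90 and 3.24 FPKM with miR-29a-3p, against 6.72 and 7.30 FPKM in the controls. The log2 fold change was -0.81 ± 0.151 (adjusted p = 0.00483). The sense-intronic transcripts inside it, AC012181.2 and AC012181.1, reached 3.13 and 2.02 FPKM, close to its own level. SEL1L, the adaptor of the HRD1 ubiquitin ligase (chr14:81471549-81533861, minus strand), was at 21.7 and 20.9 FPKM with miR-29a-3p, against 27.8 and 28.7 FPKM in the controls. Its log2 fold change was the smallest of the 10, -0.39 ± 0.046 (adjusted p = 0.000698), and its groups were apart.

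**Figure D2:**
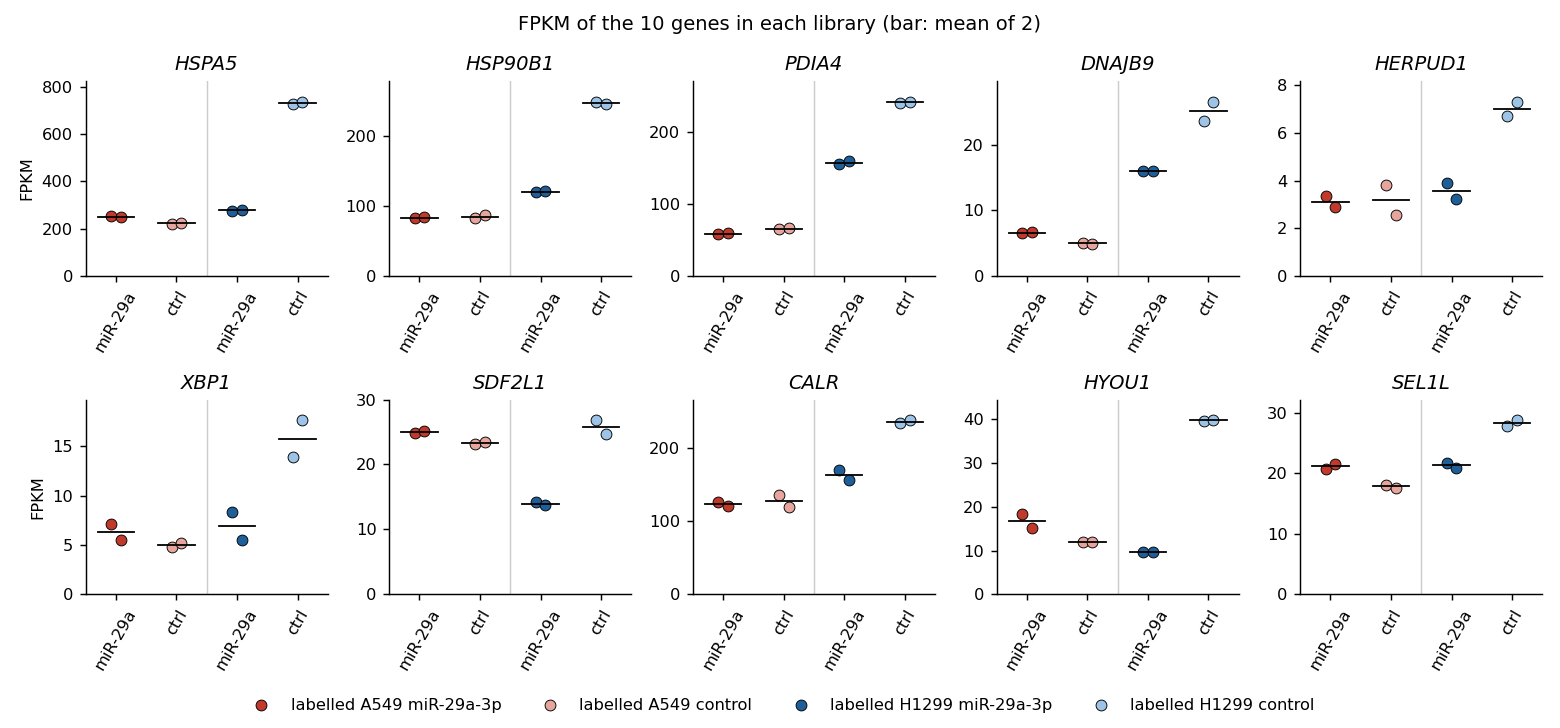
FPKM of each of the 10 genes in every library (points) on linear axes that start at 0, with a bar at the mean of the 2 libraries of a group and miR-29a-3p left of control in each line. In the libraries labelled H1299 both treated points lie below both controls for all 10 genes. In those labelled A549 the groups overlap for HSP90B1, HERPUD1 and CALR. Groups of 2 libraries can lie apart by spread alone. The share of all genes whose groups lie apart was not counted, so these counts have no background beside them.

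The changes were smaller in the libraries labelled A549 and went in both directions. Passing the test, HSPA5, DNAJB9, HYOU1 and SEL1L were higher with miR-29a-3p than in the controls, and PDIA4 was lower. Over all genes, 7.30% were called higher and 8.66% lower. The median of the 10 was 0.13, beside 0.001 for all genes. The largest change was that of HYOU1, and even this was under 0.5 on the log2 scale.

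HYOU1 was at 18.4 and 15.2 FPKM in A549-labelled miR-29a-3p libraries, against 12.1 and 11.9 FPKM in their controls (log2 fold change 0.45 ± 0.084, adjusted p = 0.0173). DNAJB9 was at 6.53 and 6.70 FPKM with miR-29a-3p, against 5.04 and 4.89 FPKM in the controls (0.35 ± 0.063, adjusted p = 0.0149). Both genes had every treated value above every control. SEL1L was at 20.8 and 21.6 FPKM with miR-29a-3p, against 18.1 and 17.6 FPKM in the controls (0.23 ± 0.046, adjusted p = 0.0206). HSPA5 was at 254 and 247 FPKM with miR-29a-3p, against 220.4 and 224 FPKM in the controls (0.17 ± 0.034, adjusted p = 0.0214). Again the groups were apart, though for HSPA5 by a small step. PDIA4 was at 58.4 and 59.3 FPKM with miR-29a-3p, against 64.8 and 66.8 FPKM in the controls (-0.16 ± 0.037, adjusted p = 0.0355).

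These 5 calls rested on a small spread between few libraries. Leaving out any 1 of the 4 A549-labelled libraries left 0 or 1 of the 10 called, and fitting the A549-labelled libraries alone left 0. The adjusted p was then 0.059 to 0.101 for HSPA5 without 1 of these libraries, 0.0564 to 0.0745 for DNAJB9 and 0.0582 to 0.0928 for SEL1L. HYOU1 lost its call without either control (0.0696 and 0.0827), and PDIA4 lost its call in 12 of 15 alternatives. HSPA5 also lost its call with no filter on low values (0.0537) and with no trend in the variance (0.0676).

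The other 5 genes did not pass the test in the libraries labelled A549. XBP1 was at 7.13 and 5.46 FPKM with miR-29a-3p, against 4.76 and 5.17 FPKM in the controls (0.28 ± 0.202, adjusted p = 0.398). SDF2L1 was at 24.8 and 25.1 FPKM with miR-29a-3p, against 23.2 and 23.4 FPKM in the controls (0.10 ± 0.052, adjusted p = 0.27). Both genes had treated values above the controls, without passing the threshold. HSP90B1 was at 82.1 and 83.2 FPKM with miR-29a-3p, against 81.9 and 87.0 FPKM in the controls, and its 95% interval ran from -0.13 to 0.07. CALR was at 125.7 and 120.6 FPKM with miR-29a-3p, against 134.7 and 118.8 FPKM in the controls, with an interval from -0.21 to 0.13. HERPUD1 was at 3.34 and 2.90 FPKM with miR-29a-3p, against 3.80 and 2.57 FPKM in the controls, with an interval from -0.37 to 0.35. In these last genes the treated values lay among the controls, and a change of the size seen in the libraries labelled H1299 lay outside each interval.

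**Figure D3:**
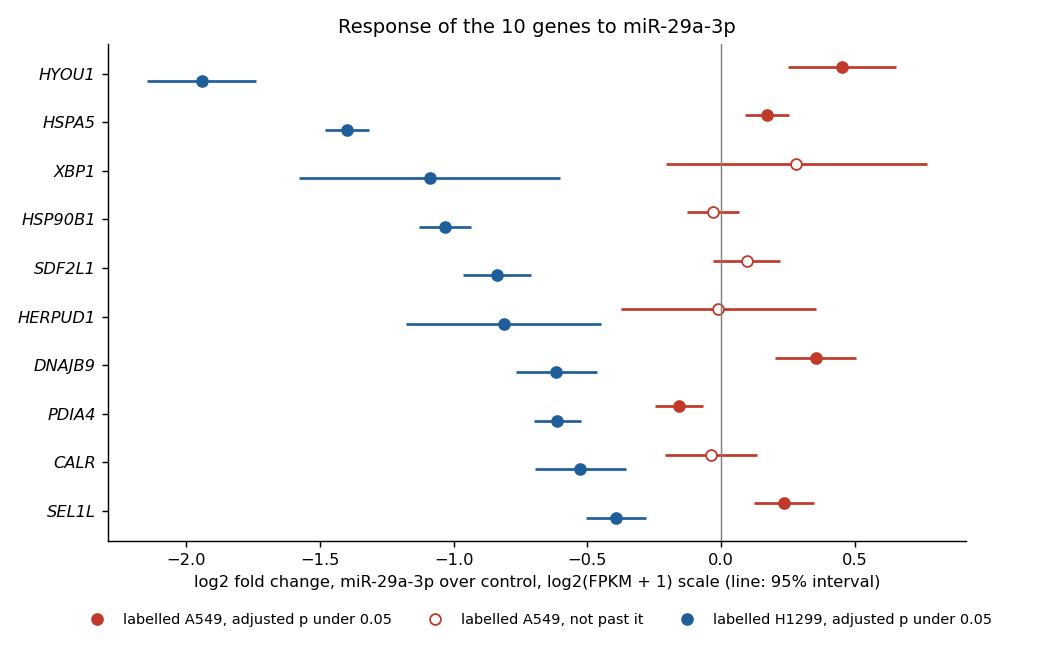
Log2 fold change of the 10 genes, miR-29a-3p over control, with 95% intervals, in the libraries labelled A549 (red) and H1299 (blue), filled where the adjusted p is under 0.05. All 10 blue points lie left of 0, from -1.94 for HYOU1 to -0.39 for SEL1L, and the red points lie between -0.16 and 0.45.

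The difference between the responses was tested as an interaction, the A549 response minus the H1299 response. All 10 genes passed it with a positive difference, against 18.1% of all genes called positive and 19.2% called negative. The responses have no library in common. The difference was 2.40 ± 0.119 on the log2 scale for HYOU1 (adjusted p = 9.15e-05) and 1.57 ± 0.048 for HSPA5 (adjusted p = 3.42e-05). It was 1.37 ± 0.285 for XBP1 (adjusted p = 0.0113), whose 95% interval, 0.68 to 2.06, was the widest of the 10.

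Next in size were HSP90B1 (1.002, adjusted p = 0.000131), DNAJB9 (0.97, adjusted p = 0.00054) and SDF2L1 (0.93, adjusted p = 0.00034). The removal factors followed, HERPUD1 at 0.80 (adjusted p = 0.0273) and SEL1L at 0.63 (adjusted p = 0.000841). CALR (0.49, adjusted p = 0.0108) and PDIA4 (0.45, adjusted p = 0.00123) differed the least. HERPUD1 alone lost its call under some alternatives, in 6 of 13, at adjusted p values of 0.0509 to 0.0827.

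Among the control libraries, 9 of the 10 were lower in those labelled A549 than in those labelled H1299, beside 29.8% of all genes called lower and 45.0% called higher. The median of the 10 was -1.51, beside 0.17 for all genes, and rescaling the libraries brought the median of all genes to 0.01. After that rescaling the 10 ran from -2.33 to -0.34. The mean level in H1299-labelled controls over that in A549-labelled controls was 5.07 for DNAJB9, 3.68 for PDIA4, 3.32 for HYOU1 and 3.29 for HSPA5. It was 3.17 for XBP1, 2.92 for HSP90B1, 2.20 for HERPUD1, 1.86 for CALR and 1.58 for SEL1L. SDF2L1 was the exception at 1.10, a log2 difference of -0.14 (adjusted p = 0.0522), called after rescaling (-0.34, adjusted p = 0.00107).

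The gap between the lines, as A549 minus H1299 on the log2 scale, was narrower with miR-29a-3p for most of the genes. This gap uses the same control libraries as the responses, and its change equals the interaction given above, so it adds no separate test. For HSPA5 it was -0.14 with miR-29a-3p, against -1.71 in the controls. For XBP1 it was -0.11, against -1.48, and for SEL1L -0.01, against -0.64. These genes lay close together in the treated libraries of both labels. PDIA4 kept most of its gap, -1.41 with miR-29a-3p against -1.86 in the controls, and DNAJB9 kept -1.16 against -2.13. HYOU1 and SDF2L1 crossed over, at 0.74 against -1.65 for HYOU1 and 0.80 against -0.14 for SDF2L1.

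HSPA5 was the most abundant of the 10 in every group and HERPUD1 the least, and the order between them changed. In A549-labelled treated and control libraries CALR came second, followed by HSP90B1 and PDIA4. In H1299-labelled controls HSP90B1, PDIA4 and CALR followed HSPA5 at 247, 242 and 235 FPKM, a narrow range in which the 2 libraries of each gene still did not overlap with the next. In H1299-labelled miR-29a-3p libraries CALR and PDIA4 overlapped, above HSP90B1. DNAJB9 and XBP1 overlapped in both A549-labelled groups, and SDF2L1 and DNAJB9 in the H1299-labelled controls. HYOU1 ranked 8 in H1299-labelled miR-29a-3p libraries, against 5 in their controls.

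Together the 10 genes came to 789 ± 9.24 FPKM in H1299-labelled miR-29a-3p libraries, against 1596 ± 13.6 in their controls (SD, n = 2 each). In A549-labelled libraries they came to 594 ± 9.93 FPKM with miR-29a-3p, against 566 ± 4.46 in the controls. As a share of all FPKM this was 0.314% and 0.310% with miR-29a-3p, against 0.655% and 0.681% in the controls, in the libraries labelled H1299. In those labelled A549 it was 0.269% and 0.265%, against 0.258% and 0.252%. The treated H1299-labelled libraries thus stood between their controls and the A549-labelled libraries.

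Within the sum, HSPA5 held 34.7% and 35.4% in H1299-labelled miR-29a-3p libraries, against 45.7% and 45.9% in their controls. PDIA4 held 19.6% and 20.5%, against 15.2% and 15.1%. HSPA5 thus had a smaller part of the sum with miR-29a-3p and PDIA4 a larger one. In A549-labelled libraries HSPA5 held 42.2% and 42.1% with miR-29a-3p, against 38.8% and 39.9% in the controls.

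**Figure D4:**
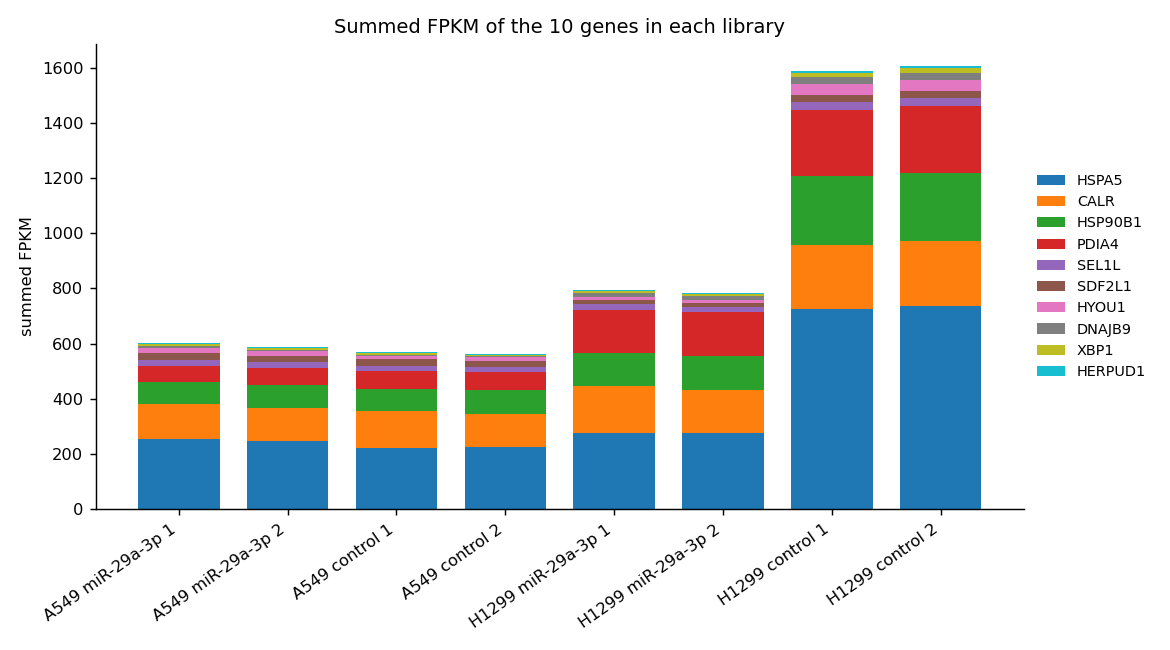
Summed FPKM of the 10 genes in each library, divided by gene, on an axis that starts at 0, with miR-29a-3p left of control in each line. The sum averages 789 with miR-29a-3p against 1596 in the controls in libraries labelled H1299, and 594 against 566 in those labelled A549.

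Across the 8 libraries, HSPA5 lay nearest the mean of the 10 genes on the log2 scale (r = 0.996), followed by HSP90B1 (0.973), XBP1 (0.969) and HERPUD1 (0.964). SDF2L1 lay farthest (0.270), with A549-labelled levels near those of the H1299-labelled controls. These correlations are descriptions over libraries of 4 groups, and the mean includes the gene itself. Outside the 10, the pattern nearest to their mean was that of SLC3A2, the heavy chain of amino acid transporters (r = 0.996 over 8 libraries), at mean levels of 11.9, 8.75, 13.6 and 61.3 FPKM in A549 miR-29a-3p, A549 control, H1299 miR-29a-3p and H1299 control libraries. AC084035.1 (0.995), TMEM184C (0.994), ALOXE3 (0.994) and AKNA (0.994) came next. Of these, AC084035.1, ALOXE3 and AKNA were near the floor. They averaged 1.98, 2.04 and 2.71 FPKM in H1299-labelled controls and under 1 FPKM in every other group.

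Around these genes, 6 lists of the wider pathway were described, each beside the shares called over all genes tested, which were 25.1% higher and 24.8% lower for H1299-labelled libraries and 7.30% higher and 8.66% lower for A549-labelled ones. The sensors and their proteases held 9 genes, of which 6 were lower and 0 higher in H1299-labelled miR-29a-3p libraries (median -0.41), and 2 higher and 0 lower in A549-labelled ones (median -0.04). The 6 lower were 66.7% of the list, against 24.8% of all genes, and the 2 higher 22.2%, against 7.30% of all genes. ERN1, encoding IRE1, averaged 8.53 ± 0.19 FPKM with miR-29a-3p, against 27.8 ± 0.49 FPKM in the controls, in the libraries labelled H1299 (SD, n = 2 each). That was a log2 fold change of -1.59 (adjusted p = 1.22e-05). In the libraries labelled A549 it averaged 3.55 ± 0.25 FPKM with miR-29a-3p, against 2.36 ± 0.066 FPKM in the controls (0.44, adjusted p = 0.0055). ERN1 was thus lower in one label and higher in the other.

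Of the other sensors, EIF2AK3 (-0.69, adjusted p = 0.000635), ATF6 (-0.76, adjusted p = 0.000138), ATF6B (-0.41, adjusted p = 0.00567) and CREB3 (-0.75, adjusted p = 0.00025) were also lower in H1299-labelled miR-29a-3p libraries. The site-2 protease MBTPS2, which cleaves ATF6, was lower too (-0.38, adjusted p = 0.00463). MBTPS1, the site-1 protease, was at -0.27 (adjusted p = 0.08), CREB3L2 at -0.13 (adjusted p = 0.0827) and CREB3L1 at 0.21 (adjusted p = 0.138). In the libraries labelled A549 CREB3, an ER-membrane transcription factor, was higher (0.30, adjusted p = 0.0316). EIF2AK3 was at -0.04 and ATF6 near 0, with adjusted p values of 0.796 and 1.

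The other ER chaperones, co-chaperones and lectins held 16 genes. In H1299-labelled miR-29a-3p libraries 14 were lower and 0 higher (median -0.51), and in A549-labelled ones 3 were lower and 0 higher (median -0.13). The lower genes were 87.5% of the list, against 24.8% of all genes, under the H1299 label, and 18.8%, against 8.66% of all genes, under the A549 label. CLGN, a calnexin relative, averaged 4.85 ± 0.12 FPKM with miR-29a-3p, against 21.8 ± 1.14 FPKM in the controls, in the libraries labelled H1299 (-1.96, adjusted p = 1.93e-05). CANX, the membrane-bound lectin partner of CALR, averaged 53.5 ± 1.63 FPKM with miR-29a-3p, against 65.2 ± 0.97 FPKM in the controls, in the libraries labelled A549 (-0.28, adjusted p = 0.00751). It was lower under the other label as well (-0.51, adjusted p = 0.000151).

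The disulfide isomerases and oxidases were called about as often as genes in general. Of 11 genes, 3 were higher and 3 lower in H1299-labelled miR-29a-3p libraries (median -0.09), and 1 was higher and 0 lower in A549-labelled ones (median -0.03). That was 27.3% each way under the H1299 label, near the 25.1% and 24.8% of all genes, and 9.09% higher under the A549 label, near 7.30% of all genes. PDIA5 averaged 9.95 ± 0.62 FPKM with miR-29a-3p, against 5.12 ± 0.059 FPKM in the controls, in the libraries labelled H1299 (0.84, adjusted p = 0.000124). TXNDC11 was lower there (-0.48, adjusted p = 0.000358) and higher in those labelled A549 (0.22, adjusted p = 0.0296). PDIA4, of the same enzyme family, was lower in both, though under the A549 label it lost its call in 12 of 15 alternatives. The call of TXNDC11 under the A549 label was also lost when those libraries were fitted alone.

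The ER-associated degradation list held 17 genes, of which 16 were tested and DERL3 was under the filter. In H1299-labelled miR-29a-3p libraries 3 were higher and 6 lower (median 0.03), and in A549-labelled ones 3 were higher and 1 lower (median 0.11). Under the H1299 label this was 18.8% higher and 37.5% lower, against 25.1% and 24.8% of all genes, with a median near 0. Under the A549 label it was 18.8% higher and 6.25% lower, against 7.30% and 8.66% of all genes. VCP, the ATPase that extracts proteins from the membrane, averaged 75.9 ± 0.57 FPKM with miR-29a-3p, against 45.4 ± 0.16 FPKM in the controls, in the libraries labelled H1299 (0.73, adjusted p = 2.5e-05). FAF2, which recruits VCP to the ER, was lower there (-0.81, adjusted p = 7.24e-05). EDEM1, which hands glycoproteins to degradation, averaged 5.27 ± 0.11 FPKM with miR-29a-3p, against 3.47 ± 0.37 FPKM in the controls, in the libraries labelled A549 (0.49, adjusted p = 0.00555).

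The list of translocation into the ER and export from it held 20 genes. In H1299-labelled miR-29a-3p libraries 2 were higher and 10 lower (median -0.25), and in A549-labelled ones 0 were higher and 3 lower (median -0.06). The 10 lower genes were 50% of the list, against 24.8% of all genes. The 3 lower under the A549 label were 15%, against 8.66% of all genes, a gap of few genes in a list of this size. SEC24D, a coat protein of export vesicles, was lower in the libraries labelled H1299 (-0.87, adjusted p = 0.000193), and KDELR3, a receptor that returns ER proteins, was higher there (0.70, adjusted p = 0.00209). SSR2, a subunit of the translocon-associated complex, was lower in those labelled A549 (-0.36, adjusted p = 0.00799).

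The list of the PERK-ATF4 arm had the largest median changes of the 6 lists and medians of opposite sign under the 2 labels. It is named for the pathway, and whether PERK drove these changes was not tested. Of 8 genes, 7 were higher and 0 lower in A549-labelled miR-29a-3p libraries (median 0.985). In H1299-labelled ones 1 was higher and 5 lower (median -0.976). The 7 higher genes were 87.5% of the list, against 7.30% of all genes, and the 5 lower 62.5%, against 24.8% of all genes. TRIB3, a pseudokinase induced by ATF4, averaged 15.7 ± 0.33 FPKM with miR-29a-3p, against 139.8 ± 6.29 FPKM in the controls, in the libraries labelled H1299 (-3.07, adjusted p = 6.07e-06). SESN2, a stress-induced regulator of growth signalling, was the gene higher in both. It averaged 42.0 ± 0.12 FPKM with miR-29a-3p, against 10.4 ± 0.72 FPKM in the controls, in the libraries labelled A549 (1.92, adjusted p = 4.92e-05). In those labelled H1299 it averaged 38.8 ± 0.19 FPKM, against 25.0 ± 0.57 FPKM (0.61, adjusted p = 0.000204).

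**Figure D5:**
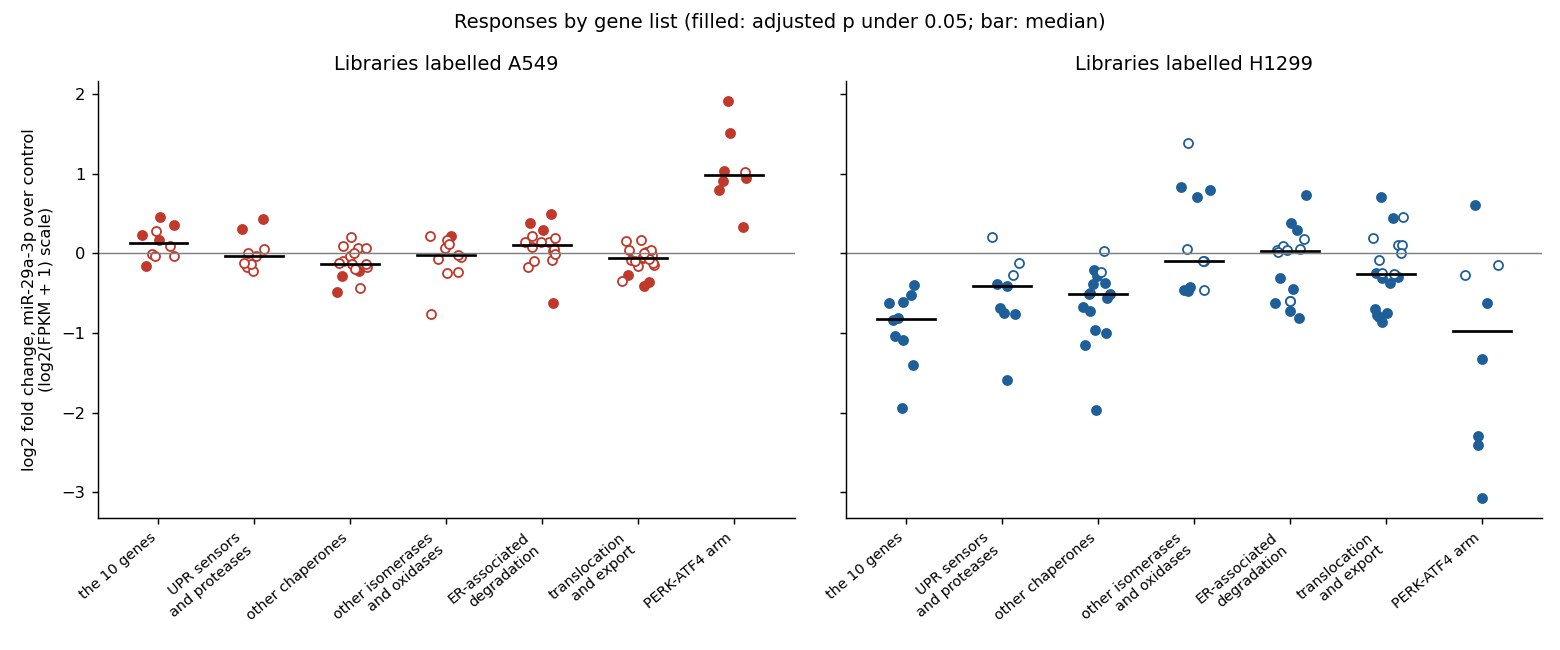
Log2 fold change, miR-29a-3p over control, of each tested gene of the 10 and of the 6 pathway lists, in the libraries labelled A549 (red) and H1299 (blue), filled where the adjusted p is under 0.05, with a bar at the median of each list. The medians of the PERK-ATF4 arm are 0.985 in A549-labelled and -0.976 in H1299-labelled libraries.

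Apart from the 10 genes, 22 tested genes had ERSE or ERSE-II in the promoter window. In H1299-labelled miR-29a-3p libraries 3 were higher and 10 lower, beside 25.1% and 24.8% of all genes, with a median of -0.26, smaller in size than the -0.82 of the 10. In A549-labelled ones 1 was higher and 4 lower, beside 7.30% and 8.66% of all genes, with a median of -0.08. The lowest in the libraries labelled H1299, named after its values were seen, was SERP1, an ER membrane protein linked to the translocon. It averaged 6.92 FPKM with miR-29a-3p, against 20.01 FPKM in the controls (-1.41, adjusted p = 0.000231). The 18 of these genes outside the pathway lists had a median of -0.19. This list was formed after the responses were known.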

How the data were processed

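Libraries were prepared from total RNA with a commercial kit, per the protocols in the labels. FPKM values were deposited as 1 table per line, with StringTie and the genome build GRCh38 named in the submitters' processing notes and no versions given. The deposited FPKM values were joined on gene ID (31461 genes, of which 31105 IDs were in GENCODE 29); a gene missing from a table (40 tested genes listed for H1299 alone and 80 for A549 alone) was set to 0 there.

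Values were taken as log2(FPKM + 1), which understates the change of low genes. Genes that reached 1 FPKM in 2 or more of 8 libraries were tested in 1 limma model (limma 3.58.1, R 4.3.3). It had 4 groups, 4 residual degrees of freedom, a trended prior and Benjamini-Hochberg adjustment. The model was checked on simulated data with a small share of genes changed, in the H1299-labelled treated group alone. That check does not cover a comparison in which many genes changed. FPKM keep no counts, and no labels say that the 2 libraries of a group are separate cultures, so the p-values rest on a spread between libraries that may be only technical. The median difference between replicates was 0.0787 to 0.0878 log2 over the 4 groups. The 10 genes and the pathway lists were chosen with earlier results of these data known. Named pathway genes are all sensors, and in each other list the called gene with the largest change in each direction. These called genes also had to average at least 5 FPKM in a group of that label. In the libraries labelled A549 this passed over the called falls of FKBP14 (-0.48), SEC24D (-0.41) and EDEM3 (-0.62). Alternatives were another pseudocount (0.1), no filter, a mean of at least 5 FPKM, rescaled libraries, no variance trend, the replicate block, each line alone and each library left out.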

Additional observations from a re-analysis of the deposited data

Results flagged for a closer look

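The response to miR-29a-3p differed between the labels, by the interaction test, for all 10 genes. As A549 minus H1299 on the log2 scale, the difference was 1.57 for HSPA5, 2.40 for HYOU1, 1.0 for HSP90B1, 0.93 for SDF2L1, 0.97 for DNAJB9, 0.49 for CALR, 0.45 for PDIA4, 1.37 for XBP1, 0.80 for HERPUD1 and 0.63 for SEL1L.

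The same test passed for 17 of the 21 pathway genes named, 5 of the 9 sensors and all 12 of the others, beside 18.1% of all genes with a positive and 19.2% with a negative difference. Those 12 were named for having the largest called rise or fall of their list in at least 1 of the responses. The choice was among genes averaging at least 5 FPKM in a group of that label. Their count is therefore no support for a difference. Among the sensors the difference was 2.03 for ERN1, 0.65 for EIF2AK3, 0.76 for ATF6, 0.47 for ATF6B and 1.05 for CREB3. Among chaperones and enzymes it was 0.23 for CANX, 1.97 for CLGN, -0.62 for PDIA5 and 0.69 for TXNDC11. In degradation and transport it was 0.31 for EDEM1, 0.80 for FAF2, -0.83 for VCP, 0.40 for SSR2, 0.46 for SEC24D and -0.66 for KDELR3. In the PERK-ATF4 arm it was 3.87 for TRIB3 and 1.30 for SESN2. The lines' markers lay opposite to the labels, and the part of this in the differences was not tested.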

How the results depend on the processing

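With 2 libraries a group, the response in the libraries labelled H1299 kept its direction and its call in all 149 values of the 10 genes under the alternatives; HERPUD1 averages under 5 FPKM and has no value at that filter. In the libraries labelled A549, 111 of 149 values kept both, 34 lost the call and 4 changed sign. The 5 of the 10 called there became 3 without the filter, 3 without the variance trend, 0 with A549 fitted alone and 0 to 4 with 1 library left out. All genes called there, 2336, became 1071 with A549 alone and 1066 to 1937 with 1 library left out. At a mean of at least 5 FPKM, which tests fewer genes, the calls were 3773 in place of 7312 for H1299, 2984 in place of 5464 for the difference and 4923 in place of 10941 for the controls.

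The replicate block left 2 of the 10 and 1261 genes called for A549. Its numbers are not said to pair samples, and same-numbered deviations correlated at 0.004 in A549 and -0.041 in H1299 over 6085 genes; the block changed no call of the 10 in the H1299 response or the difference.

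The pathway alternatives were chosen after seeing the data. Their A549 calls were, for the sensors (2), 1 without the filter, 1 with the block, 0 alone and 1 to 2 with 1 library left out. For the chaperones (3) they were 1 with the block, 1 alone and 1 to 3; for the isomerases (1), 2 at 5 FPKM, 0 with the block, 0 alone and 0 to 1. For degradation (4) they were 1 alone and 1 to 4, and for transport (3), 1 alone and 1 to 3. Signs changed in the A549 response for genes not called there, with these ranges when 1 library was left out: HSP90B1 -0.073 to 0.013, HERPUD1 -0.222 to 0.203, CALR -0.128 to 0.052, EIF2AK3 -0.131 to 0.056, ATF6 -0.047 to 0.048, ATF6B -0.017 to 0.14, KDELR3 -0.057 to 0.15 and CLGN -0.091 to 0.097. ATF6 was -0.002 with libraries rescaled. The cause was not tested.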
